A study of Mus musculus with 6 samples.

Results

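Potassium channel subunits were examined in mouse retina with Cyfip2 conditionally deleted (CKO) or intact (wild type, WT). The set holds 42 genes of 24346 gene symbols, chosen by name from the families of voltage-gated, calcium-activated, inwardly rectifying and tandem-pore potassium channels and their auxiliary subunits. Earlier results of these data were known when the set was chosen. RNA of 3 CKO and 3 WT retinal samples was sequenced with a stranded mRNA kit. The deposited value of each gene is taken as FPKM, although no header states the unit. FPKM are fragments scaled to the length of the transcript and to the mapped fragments of the library. On that reading, levels of different genes are compared per length. The labels give the genotypes as Cyfip2 CKO and Cyfip2 WT and the tissue as retina. The driver of the deletion, the alleles, and the age, sex and pooling of the animals are not stated there. Nor is it stated that the samples of a genotype came from separate animals, so the p-values measure only how far these samples differ, a spread that could be technical.

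Potassium channels let potassium ions leave or enter the cell along their gradient and thereby set the resting potential, shape the action potential and limit the firing of neurons. A channel is built from pore-forming alpha subunits, which are joined in most families as tetramers and in the tandem-pore family as dimers. Auxiliary subunits, such as the Kv beta, KChIP and KCNE proteins, change how fast the channel opens and closes and how much of it reaches the membrane. In the retina, photoreceptors use a voltage-gated current to speed their light response, bipolar and amacrine cells shape graded signals, and ganglion cells use fast potassium channels to fire in trains. Cyfip2 encodes a subunit of the WAVE complex, which controls branched actin.

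The libraries carried the labelled difference at Cyfip2. It was at 8.33, 10.2 and 11.2 FPKM in CKO 1 to 3 and at 35.5, 63.1 and 62.3 FPKM in WT 1 to 3 (log2 fold change -2.29, limma adjusted p = 0.0239, n = 3 each). The WT 1 library was thus lower than the other WT libraries and above every CKO library. Over the alternative fits the log2 fold change was -2.55 to -2.15 and the adjusted p 0.0016 to 0.228. It was above 0.05 without CKO 1 (0.109), CKO 2 (0.112), CKO 3 (0.117), WT 2 (0.197) or WT 3 (0.0663), without the minimum level (0.228), with robust eBayes (0.111) and without the trend (0.102). Defining markers of rods, cones, bipolar, horizontal, amacrine, ganglion and Muller cells were present, with a mean of at least 2.84 FPKM for each marker, and 4 pigment epithelium markers summed to 1.26 to 2.45 FPKM per library. Lens markers summed to 18.3 to 32.3 FPKM in CKO. In WT 1 to 3 they summed to 31.1, 179.7 and 64.5 FPKM, so the groups overlapped and WT 2 was the highest. The depth relative to WT 1 ran from 1.04 to 1.30 in the other libraries, and the absolute depth is unknown.

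Of the 42 members, 38 reached a mean of 1 FPKM over the 6 libraries and were tested. The 4 members below this minimum were Kcnk10 (mean 0.832 FPKM), Kcnn3 (0.549), Kcnq5 (0.369) and Kcnh3 (0.112), and the tested member nearest to it was Kcnk2, at 2.03 FPKM. Levels of the tested members spanned the range from Kcnk2 to Kcnv2, at 112.9 FPKM. The most abundant members were Kcnv2, Kcnj14 (81.1 FPKM), Kcnab2 (67.4), Kcne2 (41.0) and Kcnma1 (32.9). Kcnv2 was higher than 95.7% of all tested genes, Kcnj14 higher than 93.6% and Kcnab2 higher than 91.9%.

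**Figure D1:**
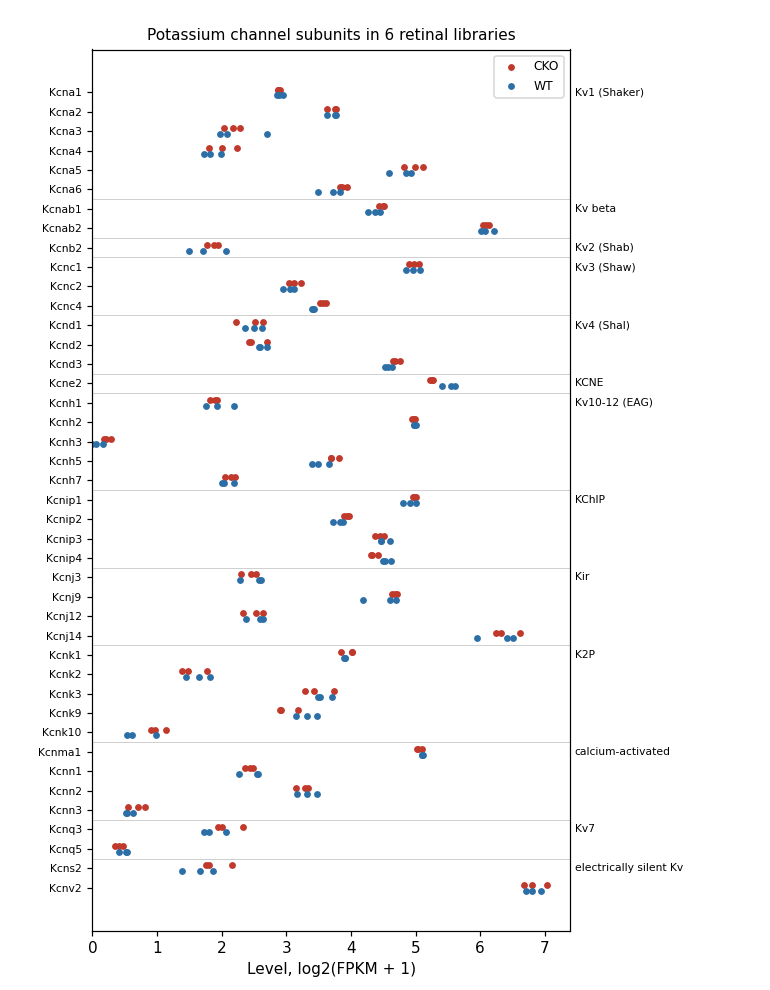
Level of each of the 42 members in log2(FPKM + 1), by subfamily, with 1 point per library (red, CKO; blue, WT). Kcnv2, Kcnj14 and Kcnab2 lie farthest to the right, and the points of CKO and WT lie close together for most members.

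No member differed between CKO and WT past an adjusted p of 0.05 in limma, and the smallest adjusted p was 0.308, that of Kcne2. Over all 13215 tested genes, 2 were higher (0.0151%) and 1 was lower (0.00757%). At an unadjusted p under 0.05 there were 5 members of 38 (13.2%), against 7.88% of all tested genes. They were Kcnh5 and Kcnc4 with the higher level in CKO, a direction taken by 3.52% of all tested genes at this p, and Kcne2, Kcnip4 and Kcnk9 with the lower level in CKO, against 4.36%. The CKO and WT libraries did not overlap for 8 tested members (21.1%), against 13.9% of all tested genes, with 5 higher in CKO (background 6.96%) and 3 lower (6.95%). Because the members were chosen with earlier results of these data known, these shares cannot be read as an excess in the set.

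The set as a whole was centred near 0. Fold changes were above 0 for 19 tested members (49.5% of all tested genes) and below 0 for 19 (50.5%), with a median log2 fold change of 0.0028 (all tested genes, -0.0016). They ran from -0.31 for Kcnk9 to 0.26 for Kcns2, and 35 of the 38 were smaller than 0.25 in size. The 95% confidence interval lay within 0.5 of 0 for 34 members (89.5%) and for 88.1% of all tested genes. Changes of this size or larger on the log2(FPKM + 1) scale were thus outside the interval for most members. This scale understates changes of low genes, so for low members the bound is looser in FPKM. The summed FPKM of all 42 members was 733.7 ± 31.8 in CKO and 723.4 ± 35.7 in WT (mean ± SD, n = 3 per genotype).

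**Figure D2:**
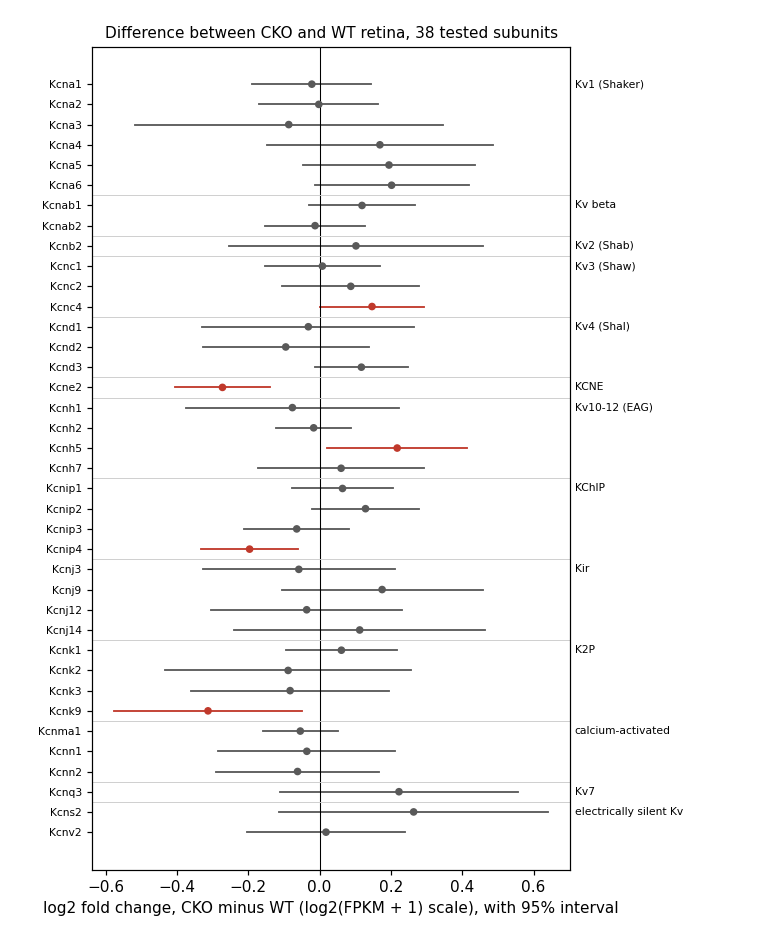
Log2 fold change (CKO minus WT, on the log2(FPKM + 1) scale) of the 38 tested members with the 95% confidence interval, by subfamily; red marks an unadjusted p under 0.05. The 5 red members are Kcnc4 and Kcnh5 to the right of 0 and Kcne2, Kcnip4 and Kcnk9 to the left.

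Kcne2, whose small membrane protein joins voltage-gated channels and slows or speeds their gating, had the smallest p of the set. It was at 36.4, 37.0 and 37.7 FPKM in CKO 1 to 3 and at 41.6, 47.6 and 45.7 FPKM in WT 1 to 3. All CKO libraries lay below all WT libraries, and the CKO libraries lay closer together than the WT libraries. The mean of 37.0 ± 0.643 FPKM in CKO was 17.7% below that of 45.0 ± 3.08 FPKM in WT (mean ± SD, n = 3 per genotype; log2 fold change -0.27, SE 0.06, 95% interval -0.41 to -0.14, limma unadjusted p = 0.00162, adjusted p = 0.308). The fold change was -0.33 to -0.22 and the unadjusted p stayed under 0.05 in all 16 alternative fits, where the adjusted p was 0.247 to 0.776. The gene spans 92292389 to 92298129 of chromosome 16 in GRCm38, plus strand.

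Kcnip4, which encodes a calcium-binding KChIP protein that attaches to Kv4 channels and slows their inactivation, came next. It was at 18.9, 19.1 and 20.4 FPKM in CKO 1 to 3 and at 21.6, 22.1 and 23.7 FPKM in WT 1 to 3. The genotypes again did not overlap, with CKO 13.3% lower in the mean. The log2 fold change was -0.20 (SE 0.06, 95% interval -0.33 to -0.06), with an unadjusted p of 0.0105 and an adjusted p of 0.504 in limma. Over the 16 alternative fits the fold change was -0.23 to -0.16, with adjusted p of 0.394 to 0.815. The gene spans 48389502 to 49524907 of chromosome 5 in GRCm38, minus strand. Of its exons, 168 bases overlap the gene 5730480H06Rik and 99 bases overlap the antisense gene Gm20700, both on the other strand.

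Upstream sequences of Kcne2 and Kcnip4 are shown because these members had the smallest p values. They are the 250 bases before an annotated start, from RefSeq on GRCm38.p6, written 5′ to 3′ on the strand of the gene. Capitals mark matches to TGACG or its reverse complement CGTCA, the core of the site of the cAMP-response factor CREB. Kcnip4 has 2 starts in this table, 685977 bases apart. They lie 239248 and 925225 bases inside the GENCODE gene, counted from its 5′ end, and which starts the deposited level covers is not stated.
Kcne2, chr16:92292139-92292388, plus strand: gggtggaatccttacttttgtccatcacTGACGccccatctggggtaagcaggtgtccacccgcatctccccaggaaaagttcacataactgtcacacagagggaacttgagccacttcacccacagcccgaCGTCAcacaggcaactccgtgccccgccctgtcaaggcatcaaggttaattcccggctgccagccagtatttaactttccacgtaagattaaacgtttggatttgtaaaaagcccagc
Kcnip4, upstream start, chr5:49285660-49285909, minus strand: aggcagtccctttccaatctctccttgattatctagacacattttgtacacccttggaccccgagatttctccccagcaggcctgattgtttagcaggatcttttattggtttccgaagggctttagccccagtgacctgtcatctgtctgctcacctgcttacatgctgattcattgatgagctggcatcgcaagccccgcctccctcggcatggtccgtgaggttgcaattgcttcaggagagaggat
Kcnip4, downstream start, chr5:48599683-48599932, minus strand: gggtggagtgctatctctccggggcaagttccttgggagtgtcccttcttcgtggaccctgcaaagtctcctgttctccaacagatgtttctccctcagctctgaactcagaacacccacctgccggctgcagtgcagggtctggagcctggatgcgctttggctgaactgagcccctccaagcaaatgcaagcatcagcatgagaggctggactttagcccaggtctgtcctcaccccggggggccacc
The Kcne2 window shown held 2 matches, that of a second Kcne2 start held 0, and the Kcnip4 windows held 0. Of the 42 members, 31 were found in the table, with 50 starts. TGACG or CGTCA was in 7 of these windows (14.0%) and in 17.8% of all 32851 windows. The 7 were windows of Kcna6, Kcnab2, Kcnc1, Kcnc4, Kcne2, Kcnh5 and Kcnn1. Fold changes of Kcnab2, Kcnc1 and Kcnn1 were -0.01, 0.0078 and -0.04. TAATCC (reverse complement GGATTA), the core of the site of the photoreceptor factor CRX, was in 1 member window (2.0%), that of Kcnj9, and in 6.25% of all windows. TATAAA (reverse complement TTTATA) was in 1 member window, again Kcnj9, and in 12.4% of all. Matches could overlap one another and describe the letters only.

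Among the KChIP genes, the level of Kcnip4 and that of Kcnip2 lay in opposite directions. Kcnip2 was at 14.4, 13.9 and 14.7 FPKM in CKO 1 to 3 and at 12.2, 13.2 and 13.7 FPKM in WT 1 to 3. Its libraries did not overlap, although CKO 2 and WT 3 were close (log2 fold change 0.13, 95% interval -0.02 to 0.28, limma adjusted p = 0.696). Kcnip1, the most abundant of the 4, was at 30.0, 31.1 and 30.3 FPKM in CKO against 29.2, 27.0 and 31.3 FPKM in WT, and its groups overlapped. Kcnip3, whose product is also known as the calcium-binding repressor DREAM, was at 19.7 to 21.9 FPKM in CKO against 21.1 to 23.2 FPKM in WT. The sum of the 4 genes was 85.1 ± 2.13 FPKM in CKO against 86.5 ± 2.88 FPKM in WT (mean ± SD, n = 3 per genotype), with overlapping libraries.

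Within that sum, the shares of Kcnip4 and Kcnip2 did not overlap between the genotypes. Kcnip4 accounted for 22.8%, 22.5% and 23.4% of the KChIP FPKM in CKO 1 to 3 and for 25.7%, 25.9% and 26.3% in WT 1 to 3. Kcnip2 accounted for 16.4% to 17.4% in CKO and 14.5% to 15.5% in WT. Shares were also computed within the Kv1, Kv3 and Kv4 genes. There, the shares of Kcna2, Kcnc1 and Kcnd2 were lower in CKO and that of Kcnd3 was higher, again without overlap. Kcnc1 had a log2 fold change of only 0.0078. Shares without overlap were thus not particular to the KChIP genes, and the remaining shares overlapped. All these shares restate the gene values and were not tested. The summed KChIP level stood at 2.49 ± 0.178 times the summed Kv4 level in CKO and 2.65 ± 0.110 times in WT, with overlapping libraries.

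**Figure D3:**
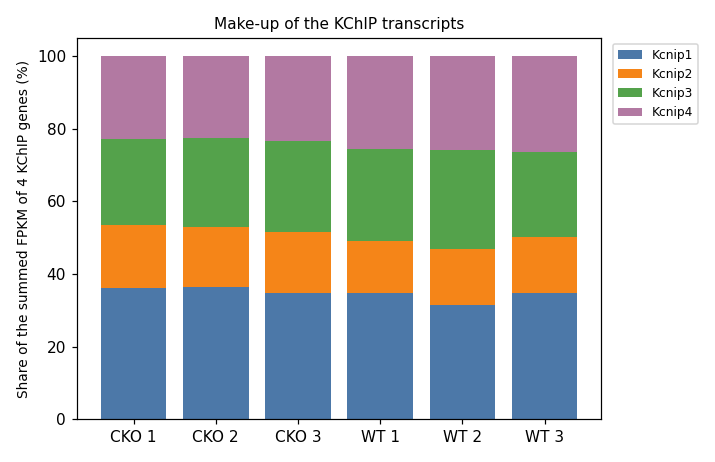
Share of each KChIP gene in the summed FPKM of the 4 genes, in percent, by library. The Kcnip4 segment is 22.5% to 23.4% in the CKO libraries and 25.7% to 26.3% in the WT libraries.

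The Kv4 alpha subunits, which carry the fast inactivating current and bind the KChIP proteins, were led by Kcnd3. Kcnd3 was at 26.1, 24.6 and 24.1 FPKM in CKO 1 to 3 and at 22.0, 23.8 and 22.9 FPKM in WT 1 to 3. The libraries did not overlap, with CKO 3 just above WT 2 (log2 fold change 0.12, 95% interval -0.01 to 0.25, limma adjusted p = 0.678). Kcnd2 was at 4.79 ± 0.614 FPKM in CKO against 5.16 ± 0.283 FPKM in WT, and Kcnd1 at 4.56 ± 0.803 and 4.66 ± 0.507 FPKM (mean ± SD, n = 3 per genotype), both with overlapping groups. Kcnd3 made up 71.1% to 75.4% of the Kv4 sum in CKO and 69.1% to 70.7% in WT.

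The Shaker-type Kv1 alpha subunits, which hold axons and terminals near rest, included 3 genes above 0 and 3 below 0. Kcna5, the most abundant, was at 33.9, 30.9 and 27.3 FPKM in CKO 1 to 3 and at 29.4, 27.8 and 23.0 FPKM in WT 1 to 3. Its groups overlapped, and WT 3 was the lowest library (log2 fold change 0.19, 95% interval -0.05 to 0.44, limma adjusted p = 0.716). Kcna6 was at 14.4, 13.5 and 13.3 FPKM in CKO against 12.2, 13.2 and 10.2 FPKM in WT. The Kcna6 libraries did not overlap, WT 3 again being the lowest (0.20, interval -0.01 to 0.42, adjusted p = 0.659), and 2355 bases of its exons overlap the antisense gene Gm26673. Kcna1 (log2 fold change -0.02) and Kcna2 (-0.0022), subunits of the axonal channel, were at 6.43 and 12.2 FPKM over all libraries. Kcna3 was at 5.49 FPKM in WT 1 and at 2.94 to 3.87 FPKM in the other 5 libraries, and Kcna4 at 2.51 to 3.72 FPKM in CKO against 2.32 to 2.99 FPKM in WT.

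Kcna5, Kcna1 and Kcna6 are neighbours on chromosome 6 of GRCm38, all on the minus strand, with 104984 and 61944 bases between them. Their fold changes of 0.19, -0.02 and 0.20 leave the middle gene nearest to 0. Kcna3 and Kcna2 are likewise neighbours on chromosome 3, 63075 bases apart, with Kcnc4 a further 323297 bases on.

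The Kv beta subunits are cytoplasmic proteins that bind Kv1 channels. Kcnab2 was at 65.0, 67.1 and 69.2 FPKM in CKO 1 to 3 and at 63.8, 73.5 and 66.1 FPKM in WT 1 to 3, with overlapping groups (log2 fold change -0.01, 95% interval -0.15 to 0.13). Kcnab1 was at 21.3 ± 0.634 FPKM in CKO against 19.6 ± 1.36 FPKM in WT (mean ± SD, n = 3 per genotype; 0.12, interval -0.03 to 0.27). The level of Kcnab2 alone was about that of all 6 Kv1 genes together, which summed to 69.6 ± 5.26 FPKM in CKO against 63.8 ± 6.41 FPKM in WT.

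Kv3 alpha subunits close quickly and allow neurons to fire fast. Kcnc1 was at 32.1, 28.8 and 30.5 FPKM in CKO 1 to 3 and at 30.3, 32.7 and 28.0 FPKM in WT 1 to 3, and its groups overlapped (log2 fold change 0.0078, 95% interval -0.15 to 0.17). Kcnc4, which adds fast inactivation to this family, was at 10.8, 10.5 and 11.2 FPKM in CKO against 9.53, 9.79 and 9.71 FPKM in WT. All Kcnc4 values of CKO lay above those of WT, with a small spread in each genotype (0.15, SE 0.06, interval 0.0026 to 0.29, limma unadjusted p = 0.0469, adjusted p = 0.624). Its unadjusted p was under 0.05 in 8 of the 16 alternative fits. Kcnc2 was at 7.78 ± 0.563 FPKM in CKO against 7.26 ± 0.476 FPKM in WT (mean ± SD, n = 3 per genotype).

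The EAG family (Kcnh genes) ranged from Kcnh2, which encodes the channel known as HERG, to Kcnh3, listed at 0.138 to 0.221 FPKM in CKO against 0 to 0.122 FPKM in WT. Kcnh2 was at 30.5, 30.9 and 29.7 FPKM in CKO 1 to 3 and at 30.4, 31.3 and 30.5 FPKM in WT 1 to 3. These were among the closest values of the set (log2 fold change -0.02, 95% interval -0.12 to 0.09). Kcnh5 was at 13.1, 11.9 and 11.96 FPKM in CKO against 10.2, 11.7 and 9.55 FPKM in WT. Its libraries did not overlap, with WT 2 close to the CKO libraries and WT 3 the lowest (0.22, SE 0.09, interval 0.02 to 0.41, limma unadjusted p = 0.0344, adjusted p = 0.601). The unadjusted p was under 0.05 in 10 of the 16 alternative fits. Kcnh7 was at 3.41 ± 0.240 FPKM in CKO against 3.23 ± 0.3002 FPKM in WT, and Kcnh1 at 2.69 ± 0.141 and 2.92 ± 0.604 FPKM (mean ± SD, n = 3 per genotype).

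**Figure D4:**
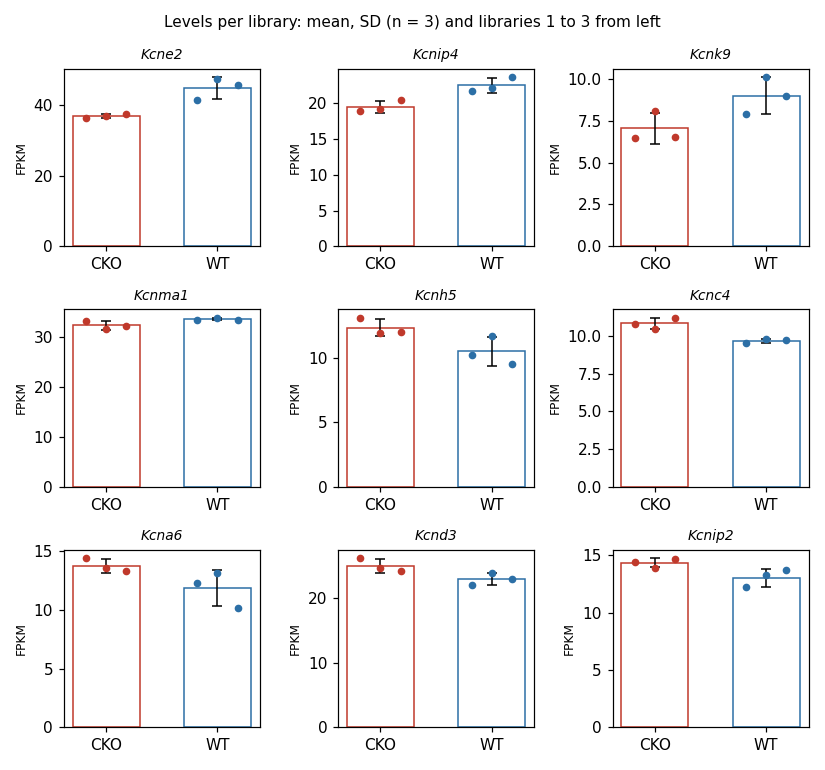
FPKM of the 9 tested members that did not overlap between genotypes or had an unadjusted p under 0.05, with bars for the mean, whiskers for the SD (n = 3) and points for libraries 1 to 3 from left to right. In Kcne2 all CKO points (36.4 to 37.7) lie below all WT points (41.6 to 47.6), and Kcnk9 is the 1 gene of the 9 whose points overlap.

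Electrically silent subunits form no channel alone and modify Kv2 channels. Kcnv2, which photoreceptors combine with Kv2 subunits and whose loss causes a human cone dystrophy, was at 130.2, 110.1 and 101.3 FPKM in CKO 1 to 3 and at 121.6, 110.6 and 103.9 FPKM in WT 1 to 3. Its libraries interleaved (log2 fold change 0.02, 95% interval -0.20 to 0.24). Kcns2 was at 3.45, 2.37 and 2.48 FPKM in CKO against 2.65, 2.16 and 1.62 FPKM in WT, and Kcnb2, a Kv2 alpha subunit gene, at 2.42, 2.67 and 2.83 FPKM in CKO against 2.27, 3.21 and 1.83 FPKM in WT. Both overlapped between genotypes.

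Among tandem-pore (K2P) genes, which carry the resting leak current, Kcnk9 had the most negative fold change of the set. Kcnk9 was at 6.47, 8.11 and 6.54 FPKM in CKO 1 to 3 and at 7.88, 10.1 and 8.98 FPKM in WT 1 to 3. The groups overlapped, since CKO 2 lay above WT 1 (log2 fold change -0.31, SE 0.11, 95% interval -0.58 to -0.05, limma unadjusted p = 0.0255, adjusted p = 0.584). The unadjusted p was under 0.05 in 11 of the 16 alternative fits. Kcnk1, the most abundant, was at 13.4, 15.3 and 15.2 FPKM in CKO against 14.0, 14.1 and 13.8 FPKM in WT. Kcnk3, the closest relative of Kcnk9 in the set, was at 10.3 ± 1.84 FPKM in CKO against 10.9 ± 0.946 FPKM in WT, and Kcnk2 at 1.94 ± 0.417 and 2.12 ± 0.400 FPKM (mean ± SD, n = 3 per genotype).

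Inward rectifiers (Kir) pass current near rest and, for Kcnj3 and Kcnj9, are opened by G protein beta-gamma subunits. Kcnj14 was at 97.6, 79.1 and 75.1 FPKM in CKO 1 to 3 and at 89.9, 84.0 and 60.6 FPKM in WT 1 to 3. It spread widely within each genotype, and its fold change of 0.11 (95% interval -0.24 to 0.46) turned to -0.06 without WT 3. Kcnj9 was at 23.8 to 25.3 FPKM in 3 CKO libraries, 23.4 and 24.9 FPKM in WT 1 and WT 2, and 17.2 FPKM in WT 3 (0.18, interval -0.11 to 0.46). Without WT 3 its fold change was 0.02. Kcnj12 was at 4.69 ± 0.626 FPKM in CKO against 4.82 ± 0.540 FPKM in WT, and Kcnj3 at 4.40 ± 0.431 and 4.64 ± 0.660 FPKM (mean ± SD, n = 3 per genotype).

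All 3 tested calcium-activated channel genes had fold changes below 0, from -0.06 to -0.04, and none had an unadjusted p under 0.05. Kcnma1, the pore of the large-conductance BK channel, was at 33.2, 31.5 and 32.04 FPKM in CKO 1 to 3 and at 33.3, 33.8 and 33.4 FPKM in WT 1 to 3. The libraries did not overlap, by the narrow gap between CKO 1 and WT 1 (log2 fold change -0.05, 95% interval -0.16 to 0.05, limma adjusted p = 0.810). The small-conductance channel genes Kcnn1 and Kcnn2 were at 4.44 and 8.82 FPKM over all libraries, and their groups overlapped. Of the Kv7 genes, which carry the M-current that damps firing, Kcnq3 was at 3.01, 4.03 and 2.83 FPKM in CKO against 2.32, 3.21 and 2.48 FPKM in WT (0.22, interval -0.11 to 0.56).

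By role, 16 of the 31 tested alpha subunits had fold changes above 0 and 15 below 0 (median log2 fold change 0.0078), and 3 of the 7 auxiliary subunits above 0 and 4 below 0 (median -0.01). The groups did not overlap for 5 of the 31 alpha subunits and for 3 of the 7 auxiliary subunits, Kcne2, Kcnip2 and Kcnip4, against 13.9% of all tested genes. Counts this small describe these members only. Subfamily sums overlapped between genotypes except for KCNE, which holds Kcne2 alone, and K2P, at 34.8 to 35.2 FPKM in CKO against 35.4 to 37.4 FPKM in WT. The K2P gap was narrow, and the groups overlapped for each tested K2P gene.

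A further 60 potassium channel and accessory genes outside the set were listed, of which 27 were tested. None passed an adjusted p of 0.05 in limma, and 1 (3.7%), Kcnmb2, was under an unadjusted p of 0.05, against 7.88% of all tested genes. The groups did not overlap for 4 (14.8%), against 13.9% of all tested genes. Fold changes were above 0 for 13 and below 0 for 14, with a median of -0.01. Kcnmb2, a beta subunit of the BK channel, was at 0.923, 0.785 and 0.902 FPKM in CKO 1 to 3. In WT 1 to 3 it was at 1.58, 1.35 and 1.196 FPKM, without overlap (log2 fold change -0.34, 95% interval -0.63 to -0.05, limma adjusted p = 0.589). Every CKO value of Kcnmb2 was below 1 FPKM. It was tested only because its WT values raised the mean over the 6 libraries to 1.12 FPKM, so its p carries little weight. The other tested genes without overlap were Kcnh6 (17.3 against 18.3 FPKM), the sulfonylurea receptor gene Abcc8 (6.22 against 6.73) and the Kv2 partner Amigo1 (10.8 against 9.56), with adjusted p of 0.692 to 0.781. Below the minimum, Kcne3 (0 to 0.386 against 0.457 to 1.04 FPKM) and Kcnu1 (0.768 to 0.871 against 0.546 to 0.72 FPKM) were also without overlap. Kcnj10, the main potassium channel of Muller glia, was at 19.05 ± 0.466 FPKM in CKO against 18.9 ± 1.45 FPKM in WT (mean ± SD, n = 3 per genotype).

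The WT 3 library held the lowest value of 15 of the 38 tested members (39.5%) and of 19.4% of all tested genes. The median deviation of members from their mean over all libraries was -0.06 (log2) in WT 3 and between -0.0054 and 0.04 in the other libraries, while that of all tested genes was between -0.00069 and 0.0026. In WT 3, 6 members lay more than 0.25 below their mean, against 4.15% of all tested genes. They were Kcnj9, Kcnj14, Kcns2, Kcnb2, Kcna5 and Kcna6. Without WT 3, 0 members were under an unadjusted p of 0.05 with the higher level in CKO, where all 6 libraries gave 2. The count was likewise 0 without CKO 1 and without CKO 2, so a count of 0 was not particular to WT 3. Each such fit has fewer libraries and less power, and the cause of the loss was not tested. Without WT 3, the fold changes of Kcnh5 and Kcna6 were 0.16 and 0.10, and those of Kcne2 and Kcnip4 were -0.26 and -0.16. That of Kcnc4 was 0.149 without WT 3 and 0.147 with all 6 libraries.

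**Figure D5:**
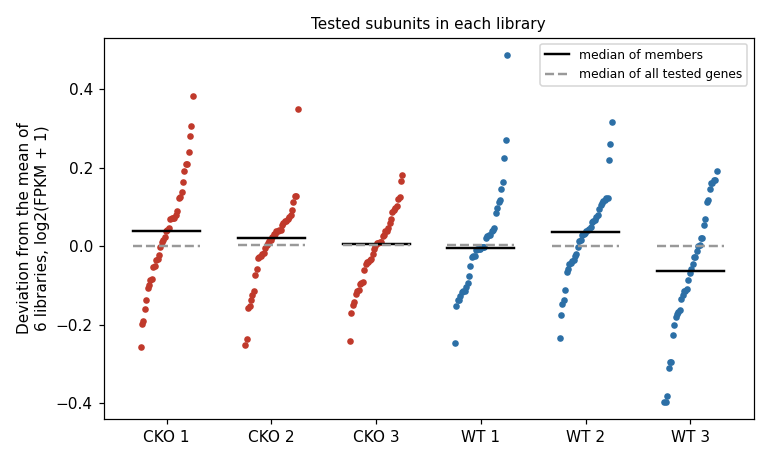
Deviation of each of the 38 tested members from its mean over the 6 libraries, in log2(FPKM + 1), by library, with the median of the members (black line) and of all tested genes (grey dashes). In WT 3 the median of the members is -0.06 and 6 members lie below -0.25.

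No cell type marker passed an adjusted p of 0.05 in limma, the smallest being 0.196 for the amacrine gene Tfap2b. The summed levels of the cone, bipolar, horizontal, amacrine, ganglion and endothelial marker lists did not overlap between the genotypes. Those of the other lists overlapped. Taken singly, 13.9% of all tested genes did not overlap. In bulk tissue fewer cells of a type and less RNA per cell cannot be told apart. All 5 cone markers had fold changes below 0, 3 with an unadjusted p under 0.05, and they summed to 492.1 to 543.5 FPKM in CKO against 552.7 to 598.1 FPKM in WT. At this p, 3 ganglion, 3 horizontal, 3 lens, 1 rod, 1 bipolar and 1 endothelial marker were also lower (4.36% of all tested genes). In the other direction, 3 amacrine markers were higher (3.52% of all tested genes). All 6 ganglion cell markers were below 0 as well, with sums of 386.4 to 406.2 FPKM and 438.1 to 479.9 FPKM. Of 4 horizontal cell markers 3 were below 0 (35.6 to 36.7 and 40.8 to 49.5 FPKM), and of 5 bipolar markers 4 were below 0 (337.5 to 349.1 and 354.9 to 371.4 FPKM). The 3 rod bipolar markers were above 0, with overlapping sums (104.8 to 109.4 and 99.02 to 106.8 FPKM), as were 3 of 4 Muller glia markers (1219 to 1402 and 1204 to 1310.0 FPKM). The 3 endothelial markers were below 0 (26.6 to 31.3 and 31.6 to 36.8 FPKM), and the 5 rod markers too, with overlapping sums. Of 5 amacrine markers 4 were above 0, with sums of 289.5 to 295.7 FPKM in CKO against 254.0 to 268.3 FPKM in WT. None of the markers of these types was listed at 0 in all libraries, and their part in the values of Kcne2, Kcnip4, Kcnk9, Kcnh5 and Kcnc4 was not tested.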

How the data were processed

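RNA of 3 CKO and 3 WT mouse retinal samples was sequenced. Per the labels' protocols it was extracted with TRIzol, and a TruSeq kit for stranded mRNA was used. Per the submitters' processing notes, the authors used Cufflinks 2.2.1, TopHat2 2.0.13, SAMtools 1.11 and Bowtie2 2.3.5.1 and the build mm10, with no role named. No annotation, parameter or use of strand is stated. The deposited values are taken as FPKM, the unit of Cufflinks, with 1 value for each of 24346 symbols; 27 symbols that a spreadsheet had made into dates were restored from the other files.

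The 42 members and the lists were chosen with earlier results of these data known. Log2(FPKM + 1) values of the 13215 genes whose mean reached 1 FPKM were fitted in limma 3.58.1 (R 4.3.3; lmFit, eBayes with trend, two-sided, no covariate), with Benjamini-Hochberg adjustment over all of them. On this scale changes of low genes are understated. An exact permutation test of 3 against 3 cannot go below 0.1 (two-sided) and was not used. All 6 values were given for members without overlap or with an unadjusted p under 0.05, the 5 most abundant, and the most abundant of each subfamily. FPKM keeps no counts: ratios between libraries at genes below 0.3 FPKM, 69.3% to 73.9% of them within 0.02 (log2) of a ratio of small whole numbers, gave relative depth only. The fit was also run on simulated data with normal noise drawn from its own variances. Such data meet the assumptions of the fit and cannot show how well they hold in these libraries. Positions are from GENCODE M21 (GRCm38), which held all 42 members; exons of 15 overlap a gene on the other strand, and reads of such pairs cannot be assigned here. Same-numbered libraries of both genotypes were compared by their deviations from the group means. The alternatives were pseudocounts of 0.1 and 0.01, no minimum or 5 FPKM, median-of-ratios and quantile scaling, robust eBayes, no trend, a block for the replicate number, each library left out, and, added after seeing the data, removal of length and GC trends (longest GENCODE transcript, splines with 4 degrees of freedom).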

Additional observations from a re-analysis of the deposited data

How the results depend on the processing

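No member passed an adjusted p of 0.05 in any of the 16 alternative fits, and 22 of the 38 tested members kept the sign of their fold change in all in which they were tested. The number of members at an unadjusted p under 0.05 with the higher level in CKO was 1 with robust eBayes and 0 to 2 when a library was left out (0 without CKO 1, CKO 2 or WT 3, 1 without CKO 3 or WT 1), and the number with the lower level was 2 to 3. Over all genes, 18 were called higher and 7 lower without the minimum level, 1 higher with the replicate block, 3 higher and 0 lower with robust eBayes, and 1 higher and 0 lower without the trend. With a library left out, 1 to 3 were called higher and 0 to 1 lower; the cause was not tested. Same-numbered libraries had correlations of 0.072, 0.0063 and 0.10 between their deviations, so the numbers were not taken as pairs, and not every library correlated best with its own number. With the block, 3 members were under an unadjusted p of 0.05 with the higher level and 3 with the lower. Signs turned for Kcna2 (0.0010) and Kcnab2 (0.0099) with quantile normalization and for Kcnc1 (-0.0105) after removal of length and GC trends, an alternative chosen after seeing the data. When a library was left out, fold changes crossed 0 for Kcna1 (-0.0417 to 0.00425), Kcna2 (-0.0455 to 0.0443), Kcna3 (-0.225 to 0.135), Kcnab2 (-0.0542 to 0.0458), Kcnb2 (-0.028 to 0.258), Kcnc1 (-0.0468 to 0.0623), Kcnd1 (-0.122 to 0.0871), Kcnh1 (-0.18 to 0.0394), Kcnj3 (-0.159 to 0.00634), Kcnj12 (-0.114 to 0.0504), Kcnj14 (-0.0582 to 0.222), Kcnk2 (-0.201 to 0.00249), Kcnk3 (-0.208 to 0.0149), Kcnn1 (-0.132 to 0.0135), Kcnn2 (-0.141 to 0.0184) and Kcnv2 (-0.0818 to 0.0977). The unknown depth limits what can be said of members below 1 FPKM.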
